A study of Drosophila melanogaster with 9 samples.

Results

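The cytosolic ribosomal protein genes encode the protein components of the ribosomes that translate mRNAs made in the nucleus. They were chosen as the gene symbols starting with RpL or RpS and a digit, to which RpLP0, RpLP1, RpLP2 and sta were added, and the mitochondrial ribosomal protein genes (mRp) were left out. The rule gave 92 of the 16988 named genes. RNA was sequenced from whole Drosophila melanogaster larvae of 3 genotypes, with 3 biological replicates of 20 pooled larvae per genotype, all grown at 28 °C. w1118, a white-eyed laboratory strain, was the control. In hopTum the JAK kinase gene hopscotch has an overactive allele, and tuSz1 is a mutant strain that has lost tolerance of its own tissue. The 3 are separate strains with no agent given to any of them, so a difference between them cannot be credited to the named allele alone.

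A working ribosome holds each of these proteins in a fixed number, and cells therefore make them at matched rates; most of the genes are transcribed strongly in every growing cell. Flies that lack a single copy of many of these genes develop slowly and have short, thin bristles, the Minute phenotype. Loss of RpS6 or of RpS21 is known in the fly for overgrowth of the larval blood-forming organs, and RpL32 (rp49) is a common reference gene in fly work. In whole larvae the measured RNA is a sum over all tissues, so fewer cells of a type and less RNA per cell cannot be told apart.

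Total counts ran from 9552828 to 14517286 per library. Levels are given as counts per 1000000 (CPM) with library sizes adjusted by TMM factors, on which 3 counts came to between 0.2 and 0.357 CPM; this floor covers counting error only. The tissue make-up differed by genotype. The summed level of 7 salivary gland genes was 47750 to 61630 CPM in w1118 and 12430 to 16560 in hopTum. The library of tuSz1 replicate 3 stood apart: its salivary gland sum was 629.8 CPM, against 56300 and 57820 in replicates 1 and 2, and it had the lowest TMM factor, 0.578 in a range up to 1.369. The 6 fat body genes summed to 11790 to 23200 CPM in w1118, 22030 to 78760 in hopTum and 74200 to 194600 in tuSz1, with Fbp1 listed at 0 throughout. The 5 midgut genes summed to 5536 to 9417, 3855 to 6314 and 15200 to 21390 CPM in the same order. Single midgut genes went both ways: of 3 tested in tuSz1 against w1118, edgeR's test called 1 higher and 1 lower (adjusted p under 0.05). The 6 lamellocyte genes, which mark a blood cell type of wounded or parasitised larvae, summed to 20.1 to 24.2 CPM in w1118, 15570 to 17530 in hopTum and 2520 to 2690 in tuSz1, with atilla and Tep4 listed at 0. The summed level of 6 plasmatocyte genes overlapped between w1118 and each mutant, with Hml and vkg listed at 0. In the sum of 3 crystal cell genes all hopTum and all tuSz1 libraries were above w1118, at 115.1 to 445.2 and 126.8 to 288.7 CPM against 46.3 to 114. The RNAs roX1 and roX2, made in males, summed to 5.79 to 10.7, 1.74 to 2.17 and 3.46 to 10.1 CPM, and the sex of the larvae is not labelled. The part of these differences in the results below was not tested.

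The deposited counts are listed per RefSeq transcript, and this decided which ribosomal protein genes could be measured. Of the 92 genes, 23 have 1 listed transcript and 69 have several. Every one of the 23 had counts. Of the 69, 11 were listed at 0 in all 9 libraries, namely RpL13A, RpL15, RpL18, RpL27A, RpL29, RpL32, RpL36A, RpL9, RpS19b, RpS27 and RpS6, and 41 had at most 100 counts over all libraries. The highest total among them was 4339 counts, for RpS29, whereas the lowest among the 15 most counted single-transcript genes was 265624. Of the 212 transcripts listed for the 69 genes, 137 were at 0 everywhere, and 42 genes had counts on exactly 1 of their transcripts. The counts followed the number of exonic bases that belong to 1 annotated transcript only. The 16 genes with under 100 such bases had a median total of 1 count, the 25 with 100 to under 300 had a median of 32, and the 28 with 300 or more had a median of 284. A gene at 0, such as the reference gene RpL32, is therefore described as listed at 0, and the 69 genes are reported apart.

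**Figure D1:**
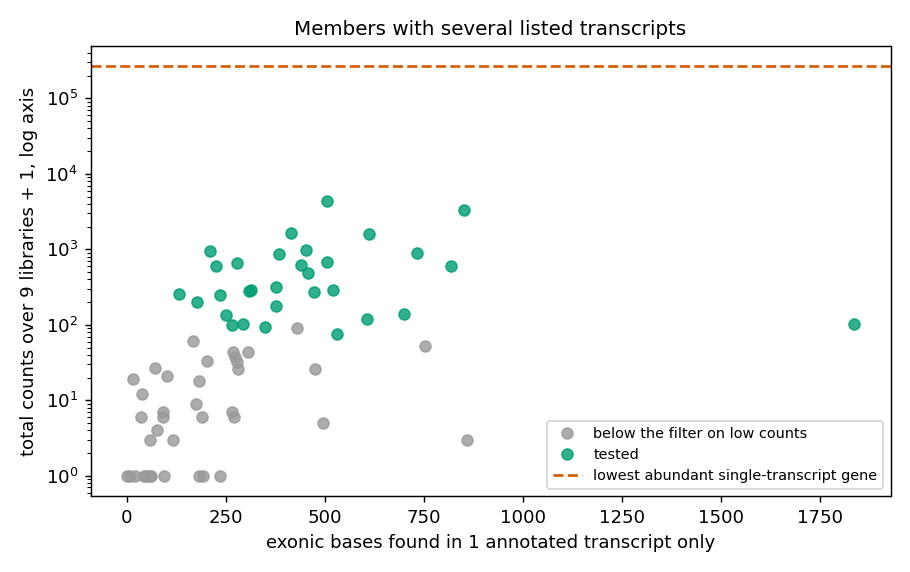
Each point is 1 of the 69 ribosomal protein genes with several listed transcripts, with the exonic bases found in only 1 annotated transcript on the horizontal axis and its total counts over 9 libraries plus 1 on the vertical log axis. Green points passed the filter on low counts (31 genes) and grey points did not (38 genes), and the dashed line marks the lowest of the 15 abundant single-transcript genes, at 265624 counts, above every point.

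The 23 single-transcript genes were divided by a list of names, with no cut on their totals, into 15 abundant genes and 8 additional or -like copies. Among the abundant ones were RpL4, RpL14, RpL22, RpL23, RpL23A, RpL35A, RpL39, RpL41 and RpLP2 of the large subunit and RpS12, RpS20, RpS24 and RpS27A of the small subunit. The other 8 were RpL10Aa, RpL22-like, RpL24-like, RpL37-2, RpS10a, RpS15Ab, RpS28-like and RpS28a, each an additional or -like copy of another ribosomal protein gene. The lowest abundant gene had 7.89 times the total of the highest of these copies. All 23 passed the filter on low counts, as did 31 of the 69 genes with several transcripts, which makes 54 genes tested of 92.

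Levels per kilobase of exon placed RpL41 first in each genotype. RpL41 encodes the smallest ribosomal protein and reached 20210 ± 1418 CPM per kb in w1118, 27960 ± 8608 in hopTum and 27390 ± 4258 in tuSz1 (mean ± SD of 3 libraries). RpLP2, an acidic protein of the ribosomal stalk that engages translation factors, had a mean level of 5893 CPM per kb in w1118, 13560 in hopTum and 9376 in tuSz1, and RpL39 had 6167, 12510 and 8875. These 2 came next after RpL41 by the mean over the 3 genotypes. In tuSz1 RpL23 was above both, at 9854 CPM per kb, and in w1118 other abundant genes were above both. The order of RpLP2 and RpL39 differed between genotypes, and in w1118 and hopTum they lay closer than the SD of either. RpL22 had the lowest level of the abundant genes in w1118 (2015 CPM per kb) and tuSz1 (2307), while in hopTum its 5749 was above the 5489 of RpS24, a difference smaller than the SD of either. The copies were far below, with means over the 3 genotypes from 431.6 CPM per kb for RpL24-like through 167.8 for RpS15Ab to 3.82 for RpS28a.

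In hopTum the abundant ribosomal protein mRNAs were at a higher level than in w1118 after TMM scaling. Their summed level was 49800, 43120 and 47390 CPM in the 3 w1118 libraries and 92190, 106100 and 68740 CPM in the 3 hopTum libraries, so the groups did not overlap. In tuSz1 it was 56210, 58340 and 79950 CPM, also above every w1118 library, with replicate 3 the highest. Without any scaling, the 23 single-transcript genes took 6.27%, 5.95% and 6.36% of all counts in w1118 (mean 6.19% ± 0.213, SD, n = 3). In hopTum they took 9.17%, 9.31% and 8.27% (mean 8.91% ± 0.564). In tuSz1 they took 4.96%, 4.96% and 4.66% (mean 4.86% ± 0.176). The mean was thus highest in hopTum on both scales, although after scaling tuSz1 replicate 3 was above hopTum replicate 3, while tuSz1 lay below w1118 in its share of counts and above it after scaling. The 50 most counted genes that are not ribosomal protein genes, among them larval serum, glue and digestive enzyme genes, bear on the share of tuSz1: with those left out, w1118 had 9.23% ± 0.14, hopTum 13.1% ± 1.73 and tuSz1 9.02% ± 0.275 of the rest.

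**Figure D2:**
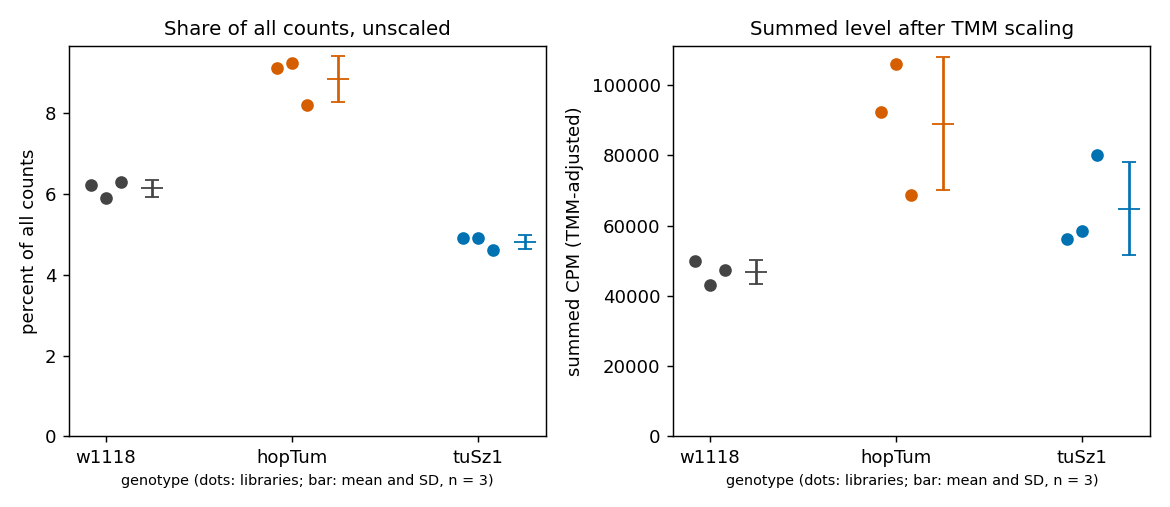
The left panel gives the percent of all counts in the 15 abundant single-transcript ribosomal protein genes in each library, and the right panel their summed level in TMM-adjusted CPM; dots are libraries and bars are the mean and SD (n = 3). On the left the 3 tuSz1 libraries lie below w1118, on the right, at 56210 to 79950 CPM, they lie above its 43120 to 49800.

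Comparing hopTum with w1118 asked whether the strain with the overactive JAK kinase changed these genes. Of the 23 single-transcript genes, 4 rose and none fell in edgeR's quasi-likelihood test at a Benjamini-Hochberg adjusted p under 0.05, where 18.1% of the 9106 genes tested were called (11.5% higher, 6.65% lower) and 19.9% of those with 1 listed transcript. A count of 4 in 23 is near that background of calls in either direction, so the calls alone do not set these genes apart. An unadjusted p under 0.05 was reached by 14 of the 23, 11 of them abundant genes, beside 32.3% of all genes. The median log2 fold change of the 23 was 0.70, beside -0.05 over all genes tested and 0.05 over the 6314 tested genes with 1 listed transcript. With library sizes set to total counts it was 0.29, when the median of all genes was -0.41, and 2 of the 23 were called, RpL4 and RpL22. All 15 abundant genes had a positive log2 fold change, between 0.47 and 1.605 with a median of 0.85, and in 12 of them every hopTum library was above every w1118 library. Among all 23 the groups were apart in this direction in 13, where 20.4% of all genes tested and 24.0% of those with 1 listed transcript were; they were apart in the other direction in 2, RpL22-like and RpS28-like, against 18.6% of all genes.

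RpL4, a large-subunit protein that lines the exit tunnel for the new chain, had the largest log2 fold change of the abundant genes. Its level was 5253, 2840 and 2859 CPM in w1118, 12890, 12870 and 7547 in hopTum and 4084, 2941 and 7664 in tuSz1. All hopTum libraries were above all w1118 libraries, and tuSz1 replicate 3 was the highest of its group. RpL4 rose 3.04-fold in hopTum against w1118 (log2 fold change 1.605, SE 0.449, edgeR adjusted p = 0.0295). RpL22, an RNA-binding protein of the large subunit, stood at 2606, 1786 and 2258 CPM in w1118, 7665, 6992 and 4315 in hopTum and 2160, 1274 and 4181 in tuSz1. Again hopTum and w1118 did not overlap, and tuSz1 spanned the w1118 range. RpL22 rose 2.85-fold in hopTum (log2 fold change 1.51, SE 0.445, edgeR adjusted p = 0.0355).

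RpLP2, the stalk protein, was at 4312, 3582 and 2785 CPM in w1118, 7779, 10520 and 6259 in hopTum and 4968, 5500 and 6520 in tuSz1. Both mutant groups lay above w1118 in every library. RpLP2 rose 2.30-fold in hopTum (log2 fold change 1.20, SE 0.344, edgeR adjusted p = 0.0319). RpL24-like, the fly counterpart of a yeast factor that acts in large-subunit assembly and is later replaced by RpL24, was at 268.1, 230.6 and 191.7 CPM in w1118, 450.1, 435.7 and 435.3 in hopTum and 323, 306.8 and 361.1 in tuSz1. All 3 groups were in separate ranges, hopTum above tuSz1 and tuSz1 above w1118. RpL24-like rose 1.91-fold in hopTum (log2 fold change 0.94, SE 0.243, edgeR adjusted p = 0.0212).

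**Figure D3:**
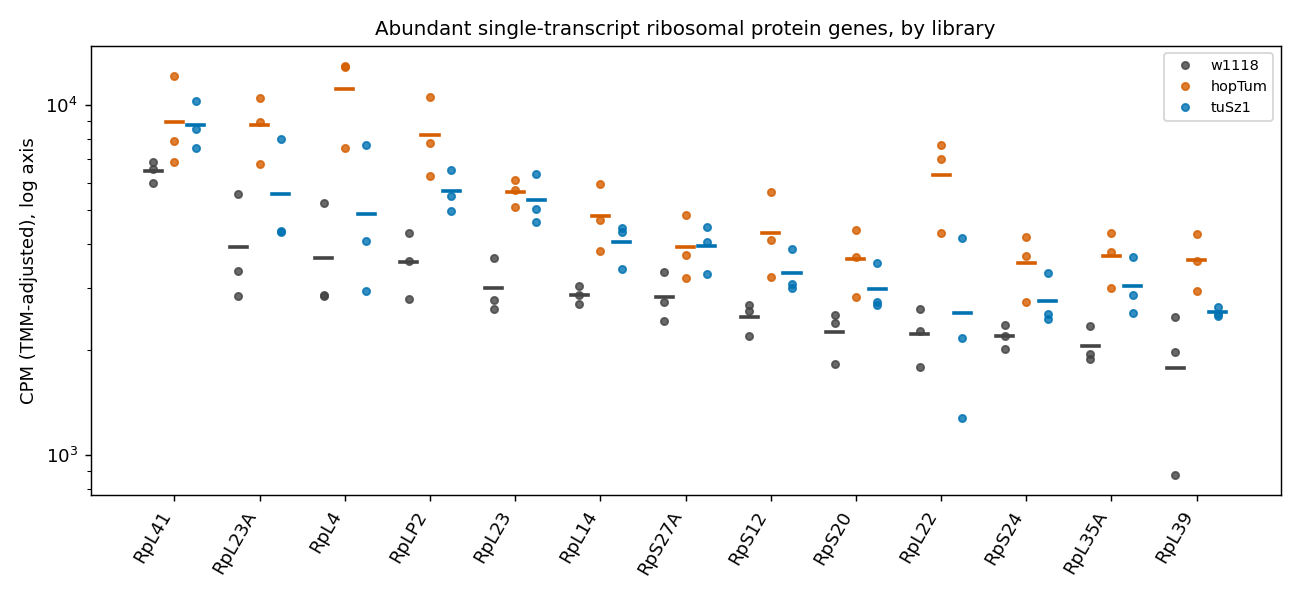
Level of 13 of the 15 abundant single-transcript ribosomal protein genes in each library, in TMM-adjusted CPM on a log axis, genes ordered by their mean in w1118; dots are libraries and bars are means of 3. RpL4 reaches 12890 CPM in hopTum against at most 5253 in w1118, and the w1118 library at 878 CPM of RpL39 is its replicate 2.

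The 12 abundant genes that were not called in hopTum had the same sign of log2 fold change. RpL23A, a protein at the tunnel exit, had a log2 fold change of 1.16 (adjusted p = 0.065 by edgeR's test) and RpL39, which sits near the tunnel exit, of 1.02 (adjusted p = 0.0889). RpL39 was at 1975, 878 and 2475 CPM in w1118 and 3587, 4273 and 2948 in hopTum, without overlap. The values of RpS12, whose dose is read in competition between Minute and normal cells, were 2581, 2677 and 2183 CPM against 4101, 5647 and 3216, a log2 fold change of 0.80 (edgeR adjusted p = 0.111). RpS27A, which is made as a fusion with ubiquitin, had 2422, 2745 and 3341 CPM against 3728, 4865 and 3203, a log2 fold change of 0.47 (edgeR adjusted p = 0.33), with 1 hopTum library inside the w1118 range.

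These calls depended on single libraries. The count of called single-transcript genes was 0 without w1118 replicate 2, w1118 replicate 3 or hopTum replicate 1, 1 without hopTum replicate 2, 2 without tuSz1 replicate 1 and 7 without tuSz1 replicate 3, the fit pooling the spread over all genotypes. Without tuSz1 replicate 3, RpL23 and RpL23A were also called higher and RpL22-like lower. The log2 fold change of RpL4 stayed between 1.44 and 1.96 in these fits, that of RpL22 between 1.31 and 1.72, that of RpLP2 between 0.98 and 1.36 and that of RpL24-like between 0.82 and 1.06. In each of these fits all 15 abundant genes had a positive log2 fold change.

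For tuSz1 against w1118, the comparison of the strain that lost self tolerance with the control, no single-transcript ribosomal protein gene was called by edgeR's test, against 16.3% of all genes tested (9.98% higher, 6.33% lower) and 18.0% of those with 1 listed transcript. An unadjusted p under 0.05 was reached by 2 of the 23 genes, beside 30.4% of all genes, and DESeq2's Wald test called 2. The median log2 fold change was 0.42, beside 0.08 over all genes tested, and the abundant genes ranged from 0.20 for RpL22 to 0.83 for RpL23. The groups did not overlap in 11 of the 23, all higher in tuSz1, where 21.4% of all genes and 25.6% of those with 1 listed transcript did so. RpL23, a large-subunit protein, was at 3653, 2766 and 2608 CPM in w1118 and 4633, 5059 and 6330 in tuSz1 (95% interval of the log2 fold change 0.14 to 1.51, edgeR adjusted p = 0.0948). The sign of these values rested on the scaling: with library sizes set to total counts, 21 of the 23 genes had a negative log2 fold change, with a median of -0.38, when the median of all genes was -0.70. Without tuSz1 replicate 3, 21 of 23 were positive, with a median of 0.32. The median lay between 0.24 and 0.28 when the 50 most counted genes or non-members were dropped, when the filter was removed or set to a mean of 50 counts, and with the 6 libraries or the genes with 1 listed transcript fitted alone.

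Between the mutants, tuSz1 against hopTum, edgeR's test also called none of the 23 genes, where 9.66% of all genes were called (5.52% higher, 4.14% lower) and 10.6% of those with 1 listed transcript, with 4 genes at an unadjusted p under 0.05 (24.1% of all genes) and 2 calls by DESeq2. With total count scaling edgeR called 6 of the 23, all lower in tuSz1, with a median of -0.65 when that of all genes was -0.39. The median log2 fold change was -0.25, beside 0.03 over all genes, and -0.36 for the abundant genes, 14 of which were negative. RpL22 (log2 fold change -1.32, 95% interval -2.28 to -0.35, adjusted p = 0.087 by edgeR's test) and RpL4 (log2 fold change -1.18, 95% interval -2.15 to -0.21, adjusted p = 0.127) were lowest in tuSz1 relative to hopTum. Without tuSz1 replicate 3 both were called, RpL22 with a log2 fold change of -1.88 (edgeR adjusted p = 0.0184) and RpL4 with -1.66 (edgeR adjusted p = 0.0409). The comparisons with w1118 share its 3 libraries and those with hopTum share its own, so their values stand side by side and are no independent repeats of each other.

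The make-up of the abundant set was then compared, as each gene's percent of the summed counts of the 15, which needs no scaling between libraries. RpL4 made up 10.6%, 6.59% and 6.03% in w1118, 14%, 12.1% and 11% in hopTum and 7.27%, 5.04% and 9.59% in tuSz1. RpL22 made up 5.23%, 4.14% and 4.76% in w1118, 8.31%, 6.59% and 6.28% in hopTum and 3.84%, 2.18% and 5.23% in tuSz1. In both genes every hopTum library was above every library of the other genotypes. RpL41, RpS24 and RpS27A showed the opposite, with every hopTum library below all others. The shares are parts of a fixed total, so larger shares of some genes lower those of others. In level, RpL41, RpS24 and RpS27A had log2 fold changes of 0.47, 0.70 and 0.47 in hopTum against w1118, none called by edgeR. RpL41 made up 12%, 15.9% and 13.8% in w1118 and 7.46%, 11.4% and 11.5% in hopTum, and RpS24, a small-subunit protein, lay in a narrow range of 3.95% to 4.03% in hopTum against 4.04% to 5.09% in w1118. When library sizes were set to the summed counts of the 15 genes, a setting added after seeing the data, none of the 15 was called in any comparison, with 0, 0 and 2 of them at an unadjusted p under 0.05 in hopTum against w1118, tuSz1 against w1118 and tuSz1 against hopTum. RpL4 then had a log2 fold change of 0.68 and RpL22 of 0.58 in hopTum against w1118 (edgeR adjusted p = 0.135 and 0.196).

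RpL22, RpL23A and RpL4 are also the only abundant genes with more than 1000 exonic bases. Together they made up 27%, 18.5% and 16.8% of the abundant counts in w1118, 33.6%, 27.2% and 27.2% in hopTum and 18.8%, 14.7% and 24.8% in tuSz1. Gene length moved with the comparisons that involve hopTum across the tested single-transcript genes outside the cytosolic ribosomal protein genes. In hopTum against w1118 the median log2 fold change was -0.24 for the 1124 genes under 700 exonic bases and 0.18 for the 2549 genes of 1500 or more. In tuSz1 against hopTum the same medians were 0.36 and -0.11, and in tuSz1 against w1118 they were 0.17 and 0.16. The part of length in the values of RpL4 and RpL22 was not tested. Of the 1100 exonic bases of RpL22, 377 are shared with a non-coding RNA gene annotated on the same strand. RpL23A shares 421 of its 1321 exonic bases with other genes, some of them on the same strand, and RpL4 shares 10 of 1400.

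**Figure D4:**
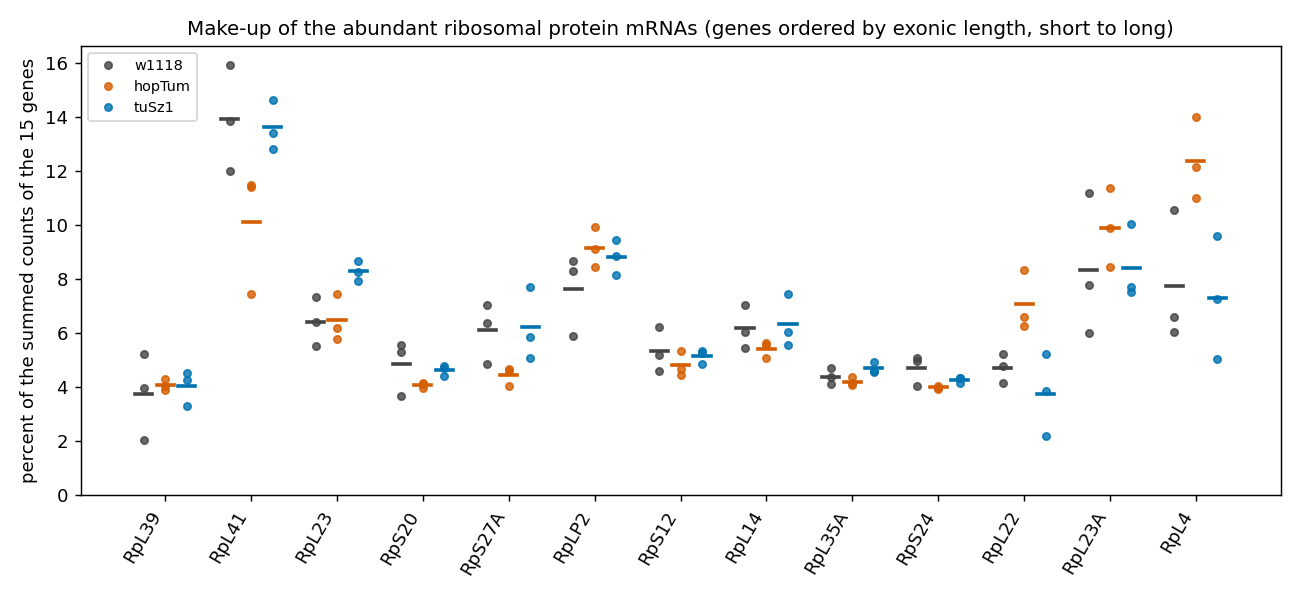
Percent of the summed counts of the 15 abundant genes that each of 13 of them contributed in each library, with genes ordered from short to long exonic length; dots are libraries and bars are means of 3. RpL4 and RpL22 are highest in hopTum (14% at most for RpL4), and RpL41, RpS24 and RpS27A are lowest there.

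The replicates did not hold this make-up equally well. The median coefficient of variation of the 15 percentages was 18.4% in w1118, 8.1% in hopTum and 6.82% in tuSz1. In w1118 RpL39 varied most, by 42.9%, and RpL35A least, by 6.76%. In tuSz1 RpL22 varied most, by 40.6%, while RpS24 varied by 2.72%. With 3 libraries in a group each of these is a rough value.

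The 8 additional copies had a median log2 fold change of -0.17 in hopTum against w1118, where the abundant genes had 0.85 and all genes tested -0.05. The medians of the copies and of the abundant genes were 0.40 and 0.44 in tuSz1 against w1118, and 0.57 and -0.36 in tuSz1 against hopTum. Apart from RpL24-like, edgeR's test on all 9106 genes with TMM scaling called none of the copies in any comparison, with 3, 1 and 2 of the 8 at an unadjusted p under 0.05 in the order hopTum against w1118, tuSz1 against w1118 and tuSz1 against hopTum. DESeq2 called RpL22-like in the first and RpS28a in the second. In the first, edgeR also called 1 copy lower with no filter, with the 6 libraries alone, and without hopTum replicate 3 or tuSz1 replicate 3. RpL22-like, which in the fly is known from the male germ line, was at 39.3, 48.4 and 25 CPM in w1118, 16.9, 9.98 and 24.7 in hopTum and 35.8, 44.1 and 18.9 in tuSz1. All hopTum libraries were below all w1118 libraries, hopTum replicate 3 only just, and the log2 fold change was -1.13 (SE 0.417, edgeR adjusted p = 0.0824). For every 1000 counts of RpL22 there were 15.1, 27.1 and 11.1 of RpL22-like in w1118, 2.2, 1.43 and 5.72 in hopTum and 16.6, 34.6 and 4.53 in tuSz1. This ratio did not overlap between hopTum and w1118, and tuSz1 replicate 3 lay within the hopTum range. The 9 testis genes, of which dj was listed at 0, summed to 219.2 to 400.2 CPM in w1118, 270 to 528.8 in hopTum and 242.5 to 488.8 in tuSz1; of 5 germ cell genes, vas, nanos, zpg and piwi were listed at 0. The part of germ line content in the RpL22-like values was not tested.

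RpS28-like was at 3.53, 3 and 2.53 CPM in w1118, 0.204, 1.22 and 1.05 in hopTum and 2.47, 3.85 and 0.357 in tuSz1. Its hopTum libraries, 1 of them under the floor of 3 counts, lay below w1118 (log2 fold change -1.84, SE 0.787, edgeR adjusted p = 0.128). RpS28a was at 0.147, 0.4 and 0.869 CPM in w1118 and 1.33, 3.67 and 1.91 in tuSz1, a log2 fold change of 2.27 (edgeR adjusted p = 0.0593), with w1118 near the floor. RpL10Aa, RpL37-2, RpS10a and RpS15Ab had overlapping groups in every comparison and log2 fold changes between -0.25 and 0.58. Relative to the 15 abundant genes, RpL22-like (log2 fold change -1.94, edgeR adjusted p = 0.0199), RpS28-like (-2.72, edgeR adjusted p = 0.0325) and RpS15Ab (-0.88, edgeR adjusted p = 0.0387) were called lower in hopTum than in w1118, where 29.0% of all genes were called at that scaling and the median of all genes was -0.92. How reads shared by near-identical copies were counted is not given in the sources used here, so values of paralogs are uncertain.

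**Figure D5:**
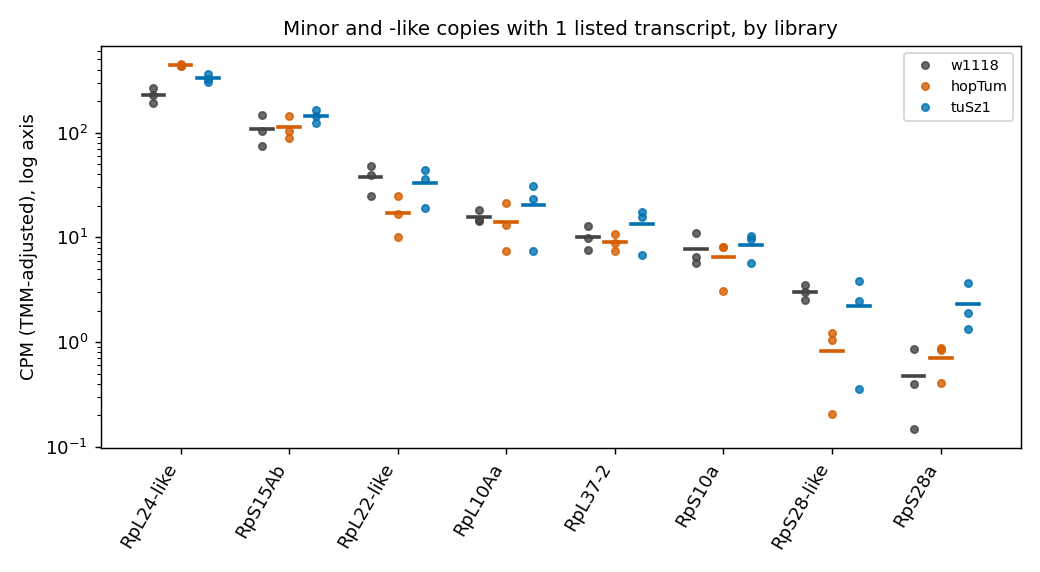
Level of the 8 additional or -like copies with 1 listed transcript in each library, in TMM-adjusted CPM on a log axis; dots are libraries and bars are means of 3. RpL24-like is highest in hopTum (435.3 to 450.1 CPM), RpL22-like lowest there (9.98 to 24.7 CPM), and the lowest points of RpS28-like and RpS28a stand at or under 3 counts.

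The genes with several transcripts carry only what was listed for 1 or a few of their transcripts, and a change in such a count may be of the transcript or of the gene. Of the 31 tested, edgeR called 1 higher and 1 lower in hopTum, 1 higher in tuSz1 against w1118 and 1 higher in tuSz1 against hopTum, where 18.1%, 16.3% and 9.66% of all genes were called in either direction. RpS23, a small-subunit protein of the decoding centre, had counts on 1 of its 2 transcripts. These were 0 in all 3 w1118 libraries, 51, 69 and 62 in hopTum and 44, 26 and 37 in tuSz1. Against the floor of 3 counts per library, its level was at least 26.9-fold higher in hopTum and at least 17-fold higher in tuSz1 than in w1118 (edgeR adjusted p = 1.07e-04 and 2.25e-04). Both calls held in each fit that left out 1 library. RpS23 passed the filter on low counts only through the mutant libraries, so this adds no further support. With the filter at a mean of 50 counts it was not tested. The bases that only the longer RpS23 transcript covers are 312, of which 263 lie at its 3 prime end and 49 at its 5 prime end. The depth of the whole gene is not in these counts, and 0 in w1118 does not show that RpS23 was absent.

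RpS28b, the main gene for the small-subunit protein eS28, also had counts on 1 of its 2 transcripts. They were 94, 222 and 243 in w1118, 14, 39 and 20 in hopTum and 103, 123 and 109 in tuSz1. All hopTum libraries were below all others, and tuSz1 overlapped w1118. RpS28b fell 5.70-fold in hopTum against w1118 (log2 fold change -2.51, SE 0.485, edgeR adjusted p = 0.00475) and stood 4.86-fold above hopTum in tuSz1 (a log2 fold change of 2.28 with an SE of 0.484, edgeR adjusted p = 0.0128). The second call was lost without hopTum replicate 1 (log2 fold change 2.01, edgeR adjusted p = 0.0581) or hopTum replicate 3 (2.05, edgeR adjusted p = 0.0516). The longer annotated RpS28b transcript alone covers 452 bases at its 3 prime end, chrX:9555210-9555661 in dm6, in the exon that ends the gene. Whether the counted reads lie in this stretch was not tested. A further gene, CG15317, overlaps 55 exonic bases of RpS28b on the opposite strand, and the strand setting of the counting is not given in the sources used here.

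Of the genes with several transcripts, edgeR's test on all 9106 genes with TMM scaling called RpS23 and RpS28b and no other. DESeq2 also called RpL38 lower in tuSz1 than in w1118 and RpL26 and RpS10b lower in tuSz1 than in hopTum, and edgeR with total count scaling called these and RpL10, RpS29 (both against w1118) and RpS4 (against hopTum) lower in tuSz1. Without w1118 replicate 1 edgeR called RpL38 lower in tuSz1 than in w1118 with TMM scaling too. The same call came with DESeq2 size factors, scaling without the ribosomal protein genes, or the 50 most counted genes or non-members left out. It also came with no filter, a mean count of at least 50, the 6 libraries alone, or library sizes set to the abundant members. At this last scaling RpL38 was also called lower in hopTum than in w1118. The replicate block and leaving out any other library gave no RpL38 call. RpL38 had 184, 461 and 252 counts in w1118, 98, 146 and 170 in hopTum and 114, 98 and 79 in tuSz1, all on 1 of its 2 listed transcripts (tuSz1 against w1118 log2 fold change -1.12, edgeR adjusted p = 0.0605). The longer annotated RpL38 transcript alone covers 612 bases at its 3 prime end, and whether the counted reads lie there was not tested. RpL26 was at 0.92, 1.6 and 1.23 CPM in hopTum and 0.19, 0.35 and 0 in tuSz1, near the floor (log2 fold change -2.65, edgeR adjusted p = 0.0774). RpL5, a large-subunit protein that carries 5S ribosomal RNA with RpL11, had a log2 fold change of 1.62 in tuSz1 against w1118 (edgeR adjusted p = 0.141) on 101 counts in all, and RpL11 of 0.06 on 279 counts. RpS3, a small-subunit protein with a role in DNA repair, had 653 counts and a log2 fold change of 0.46 in hopTum against w1118, and sta, the fly gene for RpSA, had 132 counts and one of 0.85. Neither was called by edgeR.

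Several further members with known roles were too low to test. RpS6 was listed at 0, and RpS21 had 5 counts. RpLP0 and RpLP1, the partners of RpLP2 in the stalk, had 2 and 60 counts, and RpL40 and RpS30, which like RpS27A are made as fusions with ubiquitin or a ubiquitin-like protein, had 26 and 20. Of the main copies in paralog pairs, against w1118, RpL10Ab had log2 fold changes of 0.62 (hopTum) and -0.30 (tuSz1), RpL37-1 of 0.68 and -0.25, RpS10b of 1.12 and -0.31, RpS14a of 0.64 and 0.13, RpS19a of 0.52 and 0.50 and RpS5a of 0.74 and 0.68, with no call among them by edgeR. RpL24, RpL34a, RpL34b, RpL7, RpL7-like, RpS14b, RpS15Aa and RpS5b had between 2 and 42 counts in all and were not tested.

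Of 20 tested genes of a ribosome biogenesis list (29 matched, with Nop60B, Non1, Nopp140, Nph, Nlp and RIOK1 listed at 0), 10 rose and none fell in hopTum against w1118 in edgeR's test, where 11.5% of all genes were called higher. The log2 fold change was positive in 17 of the 20, from -1.08 to 2.03, with a median of 0.71; in tuSz1 1 rose, with a median of 0.40, and between the mutants none was called by edgeR or DESeq2 (6 at an unadjusted p under 0.05), with a median of -0.37. Fib, the methyltransferase of box C/D small nucleolar particles, was at 254.5, 108.5 and 145.9 CPM in w1118 and 878.6, 610 and 592.5 in hopTum, without overlap, and rose by 2.03 on the log2 scale (SE 0.396, edgeR adjusted p = 0.005). Nop10, of the box H/ACA particles, rose in both mutants, by 1.51 in hopTum and 1.27 in tuSz1 on the log2 scale (edgeR adjusted p = 0.00279 and 0.00697). nop5, a partner of Fib, rose by 1.20 in hopTum (edgeR adjusted p = 0.00627). With total count scaling the medians were 0.34 in hopTum, -0.39 in tuSz1 and -0.80 between the mutants; 2 genes were then called higher in hopTum, 1 lower in tuSz1 and 7, among them Fib and nop5, lower in tuSz1 than in hopTum, so the direction in tuSz1 against w1118 was not kept. The count of 1 in tuSz1 became 3 without w1118 replicate 1, and the count of 10 in hopTum fell to 3 without hopTum replicate 1, 4 without w1118 replicate 2 and 6 without w1118 replicate 3.

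The mitochondrial ribosomal protein genes, of which 57 of 73 were tested, had 20 called higher in hopTum and 22 in tuSz1 against w1118 and none lower by edgeR, where 11.5% and 9.98% of all genes were called higher, with a median log2 fold change of 0.79 in each; between the mutants none was called by edgeR or DESeq2 (3 at an unadjusted p under 0.05) and the median was 0.08. Under total count scaling the medians were 0.40, -0.0062 and, between the mutants, -0.36, with 5 genes called higher in hopTum, 1 lower in tuSz1 and 4 lower in tuSz1 than in hopTum. mRpS35, a small-subunit protein, had the largest change among the called genes in both, 1.75 in hopTum and 1.58 in tuSz1 on the log2 scale (edgeR adjusted p = 0.00581 and 0.00998). Their share of all counts was 0.271% ± 0.00409 in w1118, 0.378% ± 0.0233 in hopTum and 0.27% ± 0.0126 in tuSz1 (SD, n = 3). The count in hopTum was 4 without hopTum replicate 1, 10 without hopTum replicate 2, 5 and 7 without w1118 replicates 2 and 3, and 13 and 31 without tuSz1 replicates 2 and 3. That in tuSz1 was 3 and 7 without w1118 replicates 2 and 3, 11 without hopTum replicate 1, and 12 and 5 without tuSz1 replicates 2 and 3.

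Of 9 tested genes of translation elongation and related factors, AnxB9, an annexin, alone was called by edgeR's test, higher in both mutants than in w1118. Every gene of this list has several listed transcripts, so its counts may cover only part of the gene. The elongation factor gene eEF1alpha1 was also called higher in tuSz1 by DESeq2, and by edgeR without w1118 replicate 1, and total count scaling left no gene called higher in tuSz1 and the release factor gene eRF1 called lower. AnxB9 was also called lower in tuSz1 than in hopTum, a call lost without w1118 replicate 2 or any one of the mutant libraries, and eEF1alpha2 and eEF1gamma were listed at 0. Of 9 genes known to respond when ribosome dose is reduced, GstE6, a glutathione transferase, rose in hopTum (log2 fold change 2.96, edgeR adjusted p = 4.47e-04) and in tuSz1 (3.33, edgeR adjusted p = 2.39e-04). GstE7 rose in tuSz1 by 1.90 against w1118 and by 1.89 against hopTum on the log2 scale (edgeR adjusted p = 0.00102 and 0.0021), and GstD2 by 2.31 against w1118 (edgeR adjusted p = 0.049). The GstD2 call was lost without any library other than hopTum replicate 2 or 3. The cell death gene rpr rose by 1.18 in hopTum against w1118 (edgeR adjusted p = 0.0302) and fell by 1.52 in tuSz1 against hopTum (edgeR adjusted p = 0.016); the first call was lost without w1118 replicate 1 or 3 or hopTum replicate 1 or 3, the second without hopTum replicate 3 or tuSz1 replicate 1 or 2. Xrp1 and Irbp18 of the same list were not called, but both have several listed transcripts, so this may not hold for the whole gene. None of 6 tested growth regulators was called in any comparison by edgeR's test, with 1, 1 and 2 of them at an unadjusted p under 0.05 in hopTum against w1118, tuSz1 against w1118 and tuSz1 against hopTum, and DESeq2 called 1 of 9, the insulin receptor gene InR, lower in tuSz1 than in w1118. edgeR also called InR lower there with total count scaling, with only the 6 libraries compared and without hopTum replicate 2, and with total count scaling it called Myc lower in tuSz1 than in hopTum. All growth regulators of the list but M1BP have several listed transcripts, so the same limit applies to their calls and to the lack of them.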

How the data were processed

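The deposited files hold raw read counts per RefSeq transcript, made by the authors with FastQC 0.11.8, HISAT2 2.1.0 and featureCounts 1.6.3 on dm6, per the submitters' processing notes. The counting options and strand setting are not given in the sources used here. Of 34111 entries, 199 (0.421% of counts) matched no gene. Transcript rows were added up by gene symbol, and exon structures came from the BDGP6 annotation (same assembly as dm6). edgeR 4.0.16 in R 4.3.3 fitted all 9 libraries with TMM factors, filterByExpr and the robust quasi-likelihood test; p-values were Benjamini-Hochberg adjusted over the 9106 genes tested, with a threshold of 0.05. Intervals are 95% t intervals. A fold against a genotype at 0 used a floor of 3 counts per library.

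Members, gene lists and tests were chosen with earlier results of these data known. Named genes were the called single-transcript members (at most 5 up and 5 down), paralog pairs, members with a textbook role outside the ribosome, and up to 3 called genes of each other list; RpL23, RpL23A, RpL39, RpL41, RpS24, RpL26, RpL38, RpL10, RpS4, RpS23, RpS29, eEF1alpha1, eRF1, InR and Myc were added with their values known. Of the 15 abundant genes, 2 are not reported by name here. The fit was tested on simulated data. Alternatives were other scalings, filters, DESeq2 1.42.0, a replicate block, fits of the 6 libraries compared, counts per transcript and leaving out each library.

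Within each genotype, Spearman's rho between libraries, across genes, was 0.929 to 0.978, and every pair differed by more than sampling noise. Figures were drawn with matplotlib 3.10.9.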

Additional observations from a re-analysis of the deposited data

Results flagged for a closer look

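The effect on the counted transcript of RpS28b differed between the mutant strains. It was called lower in hopTum than in w1118 (log2 fold change -2.51) and was not called in tuSz1 against w1118 (-0.23). The difference between these effects is the comparison of tuSz1 with hopTum itself, which gave a log2 fold change of 2.28 (edgeR adjusted p = 0.0128). All 3 hopTum libraries were below all 3 tuSz1 libraries.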

How the results depend on the processing

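The numbers of single-transcript and of all ribosomal protein genes called are given here for the other settings. In hopTum against w1118 the single-transcript count of 4 became 2 with total count scaling or with only genes of 1 listed transcript, 1 with the 50 most counted genes left out (10 of them members, 13 single-transcript genes left) and 8 with DESeq2's Wald test, and it ranged from 0 to 7 on leaving out 1 library. The count of 6 over all members became 3 with the 50 most counted genes left out and 10 with DESeq2, and ranged from 2 to 9. The replicate block, in which libraries with the same number are paired, left 0 single-transcript calls and 2 over all members in hopTum against w1118, and it moved no other count of member calls by over 1.5 times. Same-numbered libraries correlated in their deviations by only -0.35 to 0.17. The labels do not say whether the numbers pair the samples. These correlations cannot decide it, since the deviations are from means of only 3 libraries.

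In tuSz1 against w1118 the single-transcript count of 0 became 2 with DESeq2 and stayed at 0 on leaving out any library. The count of 1 over all members became 4 with total count scaling or DESeq2's test and 2 with DESeq2 size factors, the 50 most counted genes or non-members left out, scaling without ribosomal protein genes, no filter, the 6 libraries alone or library sizes set to the abundant members, and it ranged from 1 to 2. Where it was 2, the gene called beside RpS23 was RpL38, lower in tuSz1. In tuSz1 against hopTum the count of 0 became 6 with total count scaling, 1 with no filter and 2 with DESeq2, and ranged from 0 to 2; over all members the count of 1 became 10, 2 and 5, and ranged from 0 to 3.

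The median log2 fold change of the single-transcript genes was 0.29 in hopTum, -0.38 in tuSz1 and -0.65 between the mutants with total count scaling, and -0.24, -0.033 and 0.23 relative to the abundant members. With the 50 most counted genes left out it was 0.32 between the mutants, over the 13 genes left, most of them low copies. On leaving out 1 library it ranged from 0.56 to 0.85, 0.32 to 0.52 and -0.46 to -0.07. The share of counts was 2.25%, 3.05% and 2.12% in w1118, hopTum and tuSz1 with the 50 most counted genes left out, 9.23%, 13.1% and 9.02% with the 50 most counted non-members left out, and 6.73%, 9.52% and 5.06% of the counts in single-transcript genes. On leaving out 1 library it ranged from 6.11% to 6.31%, 8.72% to 9.24% and 4.81% to 4.96%. The cause of these shifts was not tested beyond the construction of each setting. Depth limits the genes with several transcripts, of which 27 had counts but were not tested.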
